A study of Mus musculus with 13 samples.

Results

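Hepatocyte growth factor (HGF), its receptor MET and the proteins that control the cutting of HGF were followed through 8 genes: Hgf, Met, Plau, Plaur, Plat, Spint1, Spint2 and Gab1. They are 8 of the 16382 genes in the deposited tables. The 8 symbols were chosen with earlier results of these data known, and Hgf was selected on its own values, because its libraries did not overlap between control and treatment. The difference between treatment and control in these 8 genes is therefore given as a description, without a p-value. RNA was sequenced from C2C12, a mouse myoblast line that fuses into myotubes when serum is withdrawn. Every culture carried the wild-type genotype and reached day 8 in low serum medium, which was then exchanged for medium with vehicle alone (DMSO, CON) or with 10 μM palmitoylethanolamide (PEA), a fatty acid amide, for 24 h. There were 6 CON and 6 PEA libraries, from duplicate wells of a repeated experiment whose pairing into repeats is not in the labels. The paper calls the duplicate wells technical replicates, so each group holds fewer independent repeats than libraries. The p-values and SDs below treat each library as 1 unit and measure the spread between libraries, part of which is between such wells. All cultures were 1 cell line, without the fibroblasts, immune cells and vessels of muscle.

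HGF is secreted as an inactive single chain that a serine protease has to cut before it can activate the receptor tyrosine kinase MET. In muscle, HGF is known as a signal that brings quiescent satellite cells, the stem cells of the fibre, into the cell cycle and draws myogenic cells to move. Urokinase and tissue plasminogen activator turn plasminogen into plasmin, urokinase can cut the HGF precursor, and the inhibitors HAI-1 and HAI-2 block the proteases that cut it most efficiently.

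The site of that cut is shown because the proteases and inhibitors below are grouped by their action on it. In the GENCODE M39 annotation of GRCm39 it is coded in exon 13 of the 18 exons of the canonical Hgf transcript, at chr5:16816826-16816885 on the plus strand. The 60 bases printed here run from codon 486 to codon 505, and the capitals mark codons 495 and 496, the arginine and the valine between which the precursor is cut.
Hgf cut site: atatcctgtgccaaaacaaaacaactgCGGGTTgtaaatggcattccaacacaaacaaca
All 4 annotated coding transcripts of Hgf hold this stretch. The deposited values are 1 value per gene, so they do not separate the 7 annotated transcripts and say nothing of how much HGF protein was cut.

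Depth ran from 12354845 to 50397444 estimated counts per library, with a median of 18420606, and the deepest library, CON 1, held 2.25 times the next. An estimated count is the number of reads assigned to a gene by the quantification software. A normalized count is that number divided by 1 factor for the library, which makes libraries comparable but not genes of different length. Of 13142 genes with enough counts to test, 1452 passed the threshold, a Benjamini-Hochberg adjusted p below 0.05 in edgeR's quasi-likelihood test. In PEA, 829 genes (6.31%) were higher and 623 (4.74%) lower. With 1 library left out these counts ran from 492 (without PEA 6) to 1232 (without CON 2) and from 286 (without PEA 6) to 971 (without CON 2), so the shares used for comparison below are themselves uncertain.

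The ligand gene Hgf (ENSMUSG00000028864, chr5:16758041-16828178, plus strand, GRCm39) was higher in PEA. Normalized counts in the 6 CON libraries had a lowest value of 1208, a median of 1278 and a highest value of 1496. In the 6 PEA libraries the lowest was 1723, the median 1795 and the highest 1928. The groups did not overlap, and the lowest PEA library stood 227 normalized counts above CON 4, which was the highest control by a clear margin. Means were 1305 ± 101 for CON and 1804 ± 73.6 for PEA (SD over 6 libraries each). The edgeR fit gave a log2 fold change of 0.47 (SE 0.05), a level 38.5% higher. By size of the log2 fold change Hgf stood at position 700 among the 13142 genes tested, so many genes increased by more. Non-overlap in the higher direction was found for 332 genes (2.53% of those tested), and nothing is read from Hgf being one of them, because that is how it was selected. In a lysate of a mixed culture, more cells that express a gene and more RNA per cell cannot be told apart.

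Markers of the cells in the dish were read beside Hgf. All 7 myotube markers passed the filter on low counts and none had a log2 fold change above 0. Of these, Tnnt3 (fast skeletal troponin T) fell, by 0.33 on the log2 scale (SE 0.08, adjusted p = 0.0184, edgeR). The summed level of the 7, in CPM (counts scaled to the same total in every library) per kilobase of exon, ran from 2096 to 3197 in CON and from 2102 to 2496 in PEA. Of the 6 markers of unfused myoblasts 5 were tested, and Cd34 was the 1 that rose, by a log2 fold change of 0.24 (SE 0.06, adjusted p = 0.0135, edgeR). The summed level of that list was 20.6 to 25.0 in CON and 23.1 to 25.7 in PEA. All 5 markers of dividing cells rose, among them Top2a, a topoisomerase of S and G2 phase, with a log2 fold change of 0.95 (SE 0.14, adjusted p = 9.4e-04, edgeR). Their summed level was 17.1 to 41.6 in CON and 41.3 to 48.0 in PEA. Of the 6 fibroblast markers 5 were tested, and Dcn (decorin) was the 1 that rose, with a log2 fold change of 0.48 (SE 0.15, adjusted p = 0.0439, edgeR). Lum (lumican) had a log2 fold change of -0.77 (SE 0.28, adjusted p = 0.0851, edgeR), and Col3a1, the most abundant of the list, one of -0.12 (SE 0.06, adjusted p = 0.246, edgeR), so the list did not move 1 way. The fibroblast sum was 313 to 407 in CON and 308 to 362 in PEA, and Thy1 had at most 8 counts in any library. Macrophage, endothelial and epithelial lists gave no call, with 1, 0 and 1 genes tested. On the same scale the macrophage sum was 2.04 to 5.20 in CON and 2.87 to 4.80 in PEA, in which the lysosomal gene Cd68 reached 299 counts and Csf1r 43.0, while the pan-leukocyte gene Ptprc had at most 6 counts in any library. The endothelial sum was 0.0572 to 0.218 in CON and 0.0981 to 0.241 in PEA, with Tek at most 33 counts and Pecam1 at most 7. The epithelial sum was 0.376 to 0.951 in CON and 0.204 to 0.459 in PEA, with Cdh1 at most 59 counts, Krt8 at most 25.4 and Krt18 at most 4. The part of the dividing, myoblast or fibroblast markers in the Hgf difference was not tested.

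**Figure D1:**
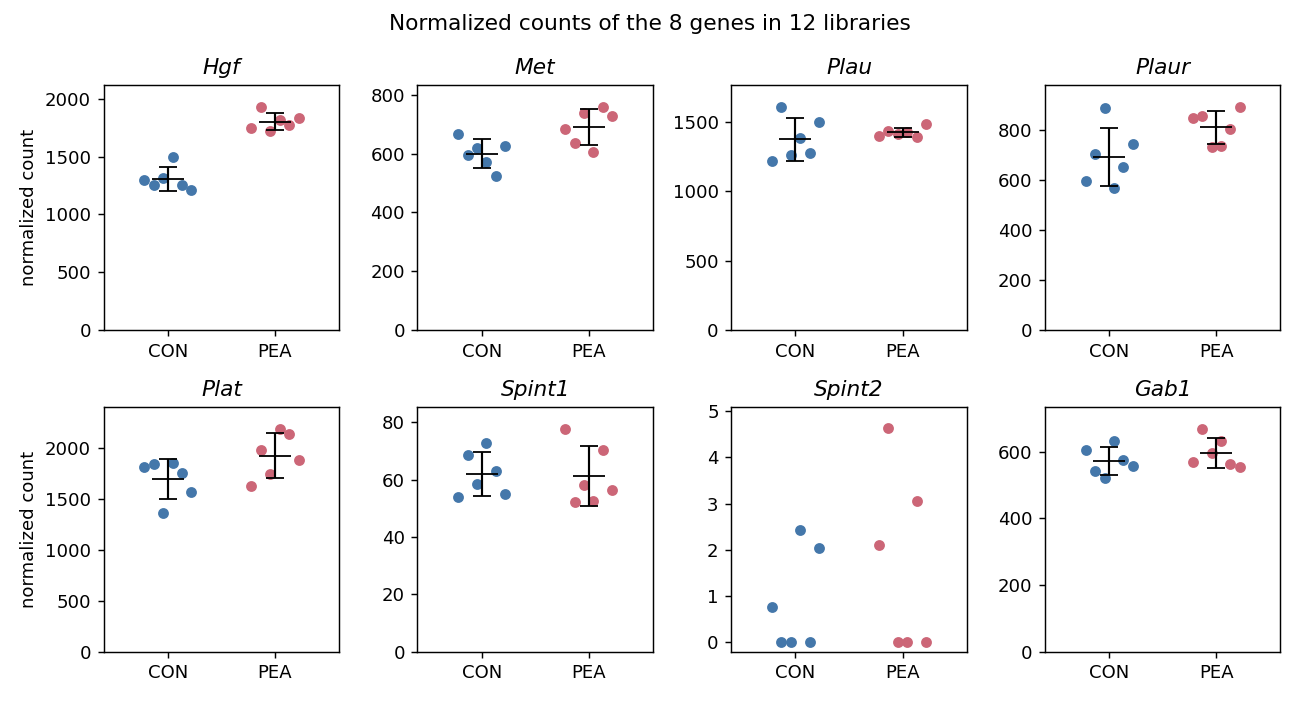
Normalized counts (vertical axis, from 0, a separate scale for each gene) of the 8 genes in the 6 CON libraries (blue) and the 6 PEA libraries (red). Each point is 1 library, the black bars give the mean and SD, and no bar is drawn for Spint2, which held at most 4 estimated counts in a library. The Hgf points of PEA, from 1723 to 1928, lie above all CON points, while the groups of the other 7 genes overlap.

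The receptor gene Met (ENSMUSG00000009376, chr6:17463749-17573979, plus strand) codes for the tyrosine kinase that binds HGF. Its normalized counts in CON had a lowest value of 524, a median of 605 and a highest value of 665. In PEA they were 604, 705 and 757. The groups overlapped: 4 of 6 PEA libraries lay above the highest CON library, and all 6 lay above the CON mean. The log2 fold change was 0.20 (SE 0.07), which did not pass the threshold. It passed when PEA 4, the lowest PEA library, was left out, with a log2 fold change of 0.24, and in none of the other 19 fits tried.

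Ligand and receptor were also compared per length inside each library. Hgf exceeded Met per kilobase of exon by a ratio of 1.59 ± 0.19 (SD, n = 6) in CON, with a range of 1.40 to 1.89. In PEA the ratio was 1.91 ± 0.23 (SD, n = 6), with a range of 1.69 to 2.20. The ranges overlap. Since this ratio contains the Hgf values that selected the gene, it is a description as well.

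Gab1 (ENSMUSG00000031714, chr8:81491061-81607279, minus strand) codes for the docking protein that MET phosphorylates to recruit its downstream enzymes. In CON the lowest normalized count was 520, the median 566 and the highest 632. In PEA the lowest was 554, the median 583 and the highest 668. Only 3 of 6 PEA libraries exceeded the CON mean, and the log2 fold change was 0.06 (SE 0.07), under its own standard error.

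Plau (ENSMUSG00000021822, chr14:20886722-20893453, plus strand) codes for urokinase, the protease that generates plasmin at the cell surface. Normalized counts ran from 1221 through a median of 1329 to 1606 in CON, and from 1391 through 1422 to 1484 in PEA. All PEA values lay inside the CON range, with a spread of 33.7 (SD) against 153 in CON. The log2 fold change was 0.06 (SE 0.06).

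Plat (ENSMUSG00000031538, chr8:23247709-23272871, plus strand) codes for tissue plasminogen activator. Its CON libraries ran from 1358 through a median of 1780 to 1855 normalized counts, and its PEA libraries from 1623 through 1930 to 2185. PEA 1 and PEA 3 lay within the CON range and 4 of 6 PEA libraries above it. The log2 fold change was 0.18 (SE 0.08) and did not pass the threshold.

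Plaur (ENSMUSG00000046223, chr7:24161875-24175394, plus strand) codes for the surface receptor that holds urokinase on the membrane. In CON the lowest normalized count was 567, the median 677 and the highest 891, and in PEA these were 733, 828 and 892. The highest control, CON 3, was level with the highest PEA library, whereas 4 of 6 CON libraries lay below the lowest PEA library. The log2 fold change was 0.23 (SE 0.09), not past the threshold. Without CON 3 it was 0.32 and passed, and it passed in none of the other 19 fits.

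Urokinase and its receptor were also set against each other per length. The ratio of Plau to Plaur was 3.15 ± 0.55 (SD, n = 6) in CON, where it ran from 2.20 to 3.81, and 2.75 ± 0.21 (SD, n = 6) in PEA, where it ran from 2.56 to 3.02. The PEA values lie inside the CON range. Both ratios depend on the length used: with canonical transcripts in place of merged exons (1540 in place of 3998 bases for Plaur), an alternative added after the data were seen, Plau to Plaur was 1.33 ± 0.23 in CON and 1.16 ± 0.09 in PEA, and Hgf to Met was 2.31 ± 0.28 and 2.77 ± 0.33.

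Spint1 (ENSMUSG00000027315, chr2:119067511-119080163, plus strand) codes for HAI-1, a Kunitz-type inhibitor of the HGF activator and matriptase. Normalized counts were 54.0 at the lowest, 60.8 at the median and 73.0 at the highest in CON, and 52.1, 57.3 and 77.7 in PEA. The groups overlapped throughout, with a log2 fold change of -0.01 (SE 0.16). At 40 to 141 estimated counts per library this gene has the widest standard error of the 7 that could be fitted.

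Spint2 (ENSMUSG00000074227, chr7:28955747-28981493, minus strand) codes for HAI-2, the related inhibitor. It held 0 to 2 estimated counts in the CON libraries and 0 to 4 in the PEA libraries, and 3 libraries of each group had none. It did not pass the filter on low counts, and no fold is given, since a difference was not detectable at this depth.

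Of the 8 genes, 7 passed the filter, and 1 of these, Hgf, passed the threshold, in the higher direction, as did 6.31% of all genes tested. Without Hgf, which was selected for being higher, the log2 fold changes of the other 6 were above 0 for 5, with a median of 0.12 against 0.01 for all genes tested. The other 6 were also chosen with earlier results of these data known, so nothing is read from that difference. Over 8 other settings and 12 fits that each left out 1 library, the log2 fold change of Hgf lay between 0.45 and 0.51. That Hgf also passed the threshold in all 20 is no support, because the same libraries selected it. Plau, Plat, Spint1 and Gab1 passed in none. Leaving out 1 library moved the small log2 fold changes of the others by more in proportion. That of Plau ran from 0.02 (without CON 1) to 0.11 (without CON 2), that of Gab1 from 0.03 (without PEA 2) to 0.09 (without CON 4), and that of Spint1 from -0.09 (without PEA 1) to 0.04 (without CON 4). Those of Plat, Met and Plaur ran from 0.13 to 0.23, from 0.17 to 0.24 and from 0.18 to 0.32. Outside the non-overlap that chose Hgf, 4 of 6 PEA libraries lay above the highest CON library for Met and for Plat. For these genes 3 and 2 of 6 CON libraries lay below the lowest PEA library. For Plaur and Plau, 1 and 0 of 6 PEA libraries lay above the highest CON library. For both, 4 of 6 CON libraries lay below the lowest PEA library.

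**Figure D2:**
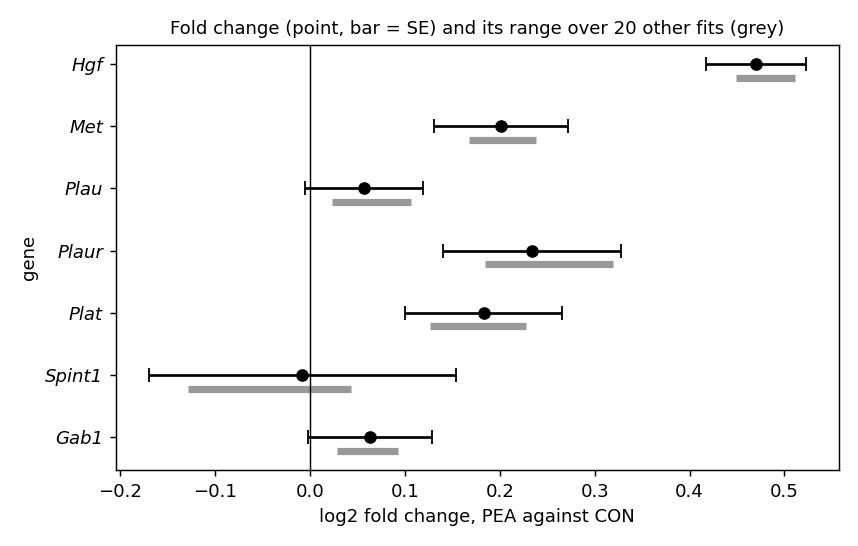
Log2 fold change of PEA against CON (horizontal axis) for the 7 genes that passed the filter on low counts (vertical axis), with the point at the edgeR estimate, the black bar its SE and the grey bar the range over 20 other fits (8 settings and 12 with 1 library left out). Hgf stands apart at 0.47, Met, Plaur and Plat lie between 0.18 and 0.23, and the grey bar of Spint1 spans 0.

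Levels of different genes were compared inside each library as CPM per kilobase of annotated exon. In CON the mean level was 27.9 ± 3.10 (SD, n = 6) for Plau, 12.7 ± 1.47 for Plat, 9.04 ± 1.53 for Plaur and 6.38 ± 0.49 for Hgf. On the same scale it was 4.33 ± 0.31 for Gab1, 4.05 ± 0.33 for Met, 0.991 ± 0.12 for Spint1 and 0.0073 for Spint2. In these myotubes the plasminogen activators and the urokinase receptor stood above the ligand on this scale, the ligand above its receptor, and the inhibitors last. The place of the ligand turned without division by length, where Hgf stood above Plaur in CON and above both Plau and Plaur in PEA.

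In PEA the mean level per length was 29.0 ± 0.70 (SD, n = 6) for Plau, 14.4 ± 1.66 for Plat, 10.6 ± 0.87 for Plaur and 8.84 ± 0.38 for Hgf. It was 4.67 ± 0.42 for Met, 4.53 ± 0.35 for Gab1, 0.980 ± 0.17 for Spint1 and 0.0137 for Spint2. Met stood above Gab1 here and below it in CON, and the order was otherwise that of CON. That exchange was not seen with canonical transcript lengths, where Gab1 was above Met in both groups (6.20 against 5.26 in PEA), or without division by length, where Met was above Gab1 in both.

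Each gene was tested against the next in that order with a two-sided exact sign-flip permutation test over the 6 libraries of a group, on log2 of the level per length plus 0.1, adjusted over 14 pairs. The test treats the 6 libraries as independent, which duplicate wells are not. The smallest p it can give is 0.03125, and 11 of 14 pairs reached that value, with an adjusted p of 0.0398 and the same sign in 6 of 6 libraries. The pairs are neighbours in an order read from the same libraries, so the order of all 14 is a description. Of the 11, 4 contain Hgf, whose values selected it, and the adjustment ran over these too. Among the 10 pairs without Hgf, 7 passed. In Spint1 over Spint2, where Spint2 held at most 4 estimated counts, the size of the difference depends on the added 0.1. Without division by exon length 0 pairs passed. In CON, Plat exceeded Plaur in 5 of 6 libraries (exact permutation p = 0.0625, adjusted p = 0.0729) and Gab1 exceeded Met in 5 of 6 (exact permutation p = 0.281, adjusted p = 0.303), and neither pair passed. The log2 difference was 0.49 ± 0.40 (SD) for Plat over Plaur, larger than its spread, and 0.09 ± 0.16 for Gab1 over Met, within it. In PEA, the difference of Met over Gab1 was 0.04 ± 0.22, also within its spread (4 of 6 libraries, exact permutation p = 0.594). The distance from Plau down to Plat was 1.13 ± 0.20 (SD) on the log2 scale in CON and 1.01 ± 0.17 in PEA.

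The place of Plau over Plat also depends on the length used. Merged exons are 2567 bases for Plau and 6973 for Plat, while their canonical transcripts are 2348 and 2590 bases, and with the canonical lengths, an alternative added after the data were seen, Plat stood above Plau in both groups. Some of these exons are shared with other annotated genes. The exons of Plau share 388 bases (15.1%) with Gm63115 on the other strand, those of Hgf share 484 bases (4.54%) with Gm43489 on the same strand and 211 bases (1.98%) with Gm31113 on the other, and those of Spint1 share 246 bases (7.54%) with 9130007G19Rik on the other. Gab1 shares 315 bases (4.57%) and 239 bases (3.47%) with Gm31105 and Gm63747, both on the other strand. The use of strand in counting is not given in the sources used here, so reads from such pairs cannot be told apart, and none of these neighbours is in the tables.

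**Figure D3:**
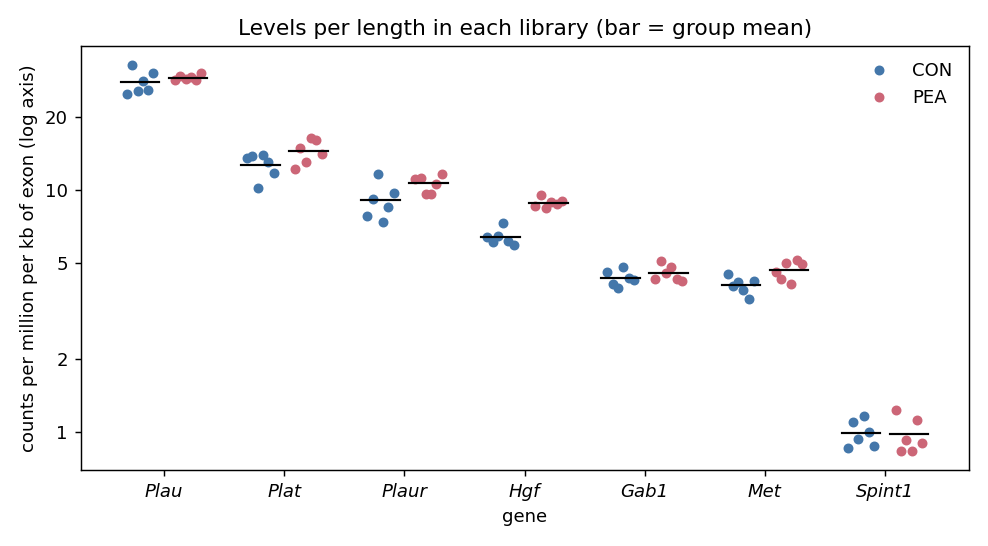
Level per length in CPM per kilobase of annotated exon (vertical log axis) of 7 genes (horizontal axis) in 6 CON (blue) and 6 PEA (red) libraries, with 1 point per library and a bar at each group mean. Spint2, with means of 0.0073 and 0.0137, is not drawn. Plau is highest at means of 27.9 and 29.0, and Hgf lies above Met in each library of both groups.

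The other genes of the pathway were taken from 5 lists of 97 genes in all, of which 89 were in the tables and 82 could be tested. The lists were also drawn up with earlier results known. Of the 82, 8 passed the threshold, 3 in the higher direction (3.66%, against 6.31% of all genes tested) and 5 in the lower (6.10%, against 4.74%). The median log2 fold change of the 82 was -0.01. The CON and PEA libraries of 4 of the 82 genes did not overlap, all in the lower direction, where 238 of all genes tested (1.81%) did the same. These were Sdc2 and Errfi1, which passed the threshold, and Serpinb6a (adjusted p = 0.0629) and Akt2 (adjusted p = 0.0800), which in edgeR did not.

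Of the proteases that cut the HGF precursor most efficiently, those analysed here gave few reads. The list held 11 genes, for proteases, an HGF relative and the receptor of that relative. Of these 6 were in the tables and none passed the filter. The highest count in any library was 17, for the receptor gene Mst1r. Hgfac, the HGF activator, had at most 11 counts, St14 (matriptase) at most 5 and Plg, the precursor of plasmin, at most 4. Mst1, coding for the HGF relative known as macrophage stimulating protein, had the highest level per length of this list and still no more than 10 counts. Hpn, Tmprss13, Klkb1, F11 and F12 were not analysed here.

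Of 13 inhibitors and receptors of the plasminogen system 10 were in the tables and 9 were tested. Of these 2 rose, 1 fell and 6 did not pass, with a median log2 fold change of 0.12. Serpine2, which codes for protease nexin-1, an inhibitor of thrombin, urokinase and plasmin, averaged 1399 ± 225 (SD, n = 6) normalized counts under vehicle and 1808 ± 207 under PEA. The log2 fold change was 0.37 (SE 0.10, adjusted p = 0.0213, edgeR). Its groups overlapped, since CON reached 1741 and PEA began at 1532. Serpinb2, which codes for plasminogen activator inhibitor 2, averaged 121 ± 21.0 under vehicle and 163 ± 26.5 under PEA, a log2 fold change of 0.43 (SE 0.14, adjusted p = 0.0496, edgeR). S100a10, the partner of annexin A2 in binding plasminogen at the surface, fell from 10144 ± 814 to 8910 ± 609 normalized counts, with a log2 fold change of -0.19 (SE 0.06, adjusted p = 0.0499, edgeR). Anxa2 itself, with the highest level per length of the list, had a log2 fold change of -0.14 (adjusted p = 0.154, edgeR). All 3 calls could be lost with 1 library. That of Serpine2 was lost without CON 6, PEA 2, PEA 4, PEA 5 or PEA 6 (highest adjusted p = 0.0535). That of Serpinb2 was lost in 9 of 12 such fits, all but those without CON 2, CON 3 or PEA 3 (highest adjusted p = 0.127), and in 4 of 8 other settings (highest adjusted p = 0.133). That of S100a10 was lost in 8 of 12, all but those without CON 2, CON 4, PEA 1 or PEA 3 (highest adjusted p = 0.117), and in 3 of 8 other settings (highest adjusted p = 0.0630).

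Among 21 genes for surface partners of MET and for its removal from the membrane, 1 rose and 2 fell, with a median log2 fold change of -0.01. The syndecans, transmembrane proteins with heparan sulfate chains of the kind that bind HGF, went in opposite directions. Sdc2 had 11773 ± 1340 (SD, n = 6) normalized counts in CON and 8280 ± 401 in PEA. The groups did not overlap, with 9236 as the lowest CON and 9039 as the highest PEA value, and the log2 fold change was -0.51 (SE 0.07, adjusted p = 4.7e-04, edgeR). Sdc3, a syndecan of satellite cells, had 1177 ± 213 in CON and 1710 ± 219 in PEA, a log2 fold change of 0.54 (SE 0.11, adjusted p = 0.00575, edgeR). Sdc1 and Sdc4 did not pass, with log2 fold changes of 0.00 and -0.08. Lrig1, which codes for a membrane protein that lowers the amount of several receptor tyrosine kinases, fell from 2184 ± 183 normalized counts under vehicle to 1837 ± 152 under PEA, by 0.25 on the log2 scale (SE 0.06, adjusted p = 0.0205, edgeR), and its call was lost without CON 6 or PEA 5 (highest adjusted p = 0.0542). The MET co-receptor gene Cd44 had a log2 fold change of 0.03 (adjusted p = 0.798, edgeR), and Itgb1, the gene with the highest level per length of the list, one of -0.01 (adjusted p = 0.844, edgeR). Calls for Sdc2 and Sdc3 held in all 8 other settings and all 12 fits that left out a library.

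Downstream of MET, 33 adaptor, GTPase and kinase genes were tested. Hras fell, none rose, and the median log2 fold change was -0.06. Hras had 1469 ± 64.8 (SD, n = 6) normalized counts in CON and 1333 ± 38.5 in PEA, a log2 fold change of -0.14 (SE 0.04, adjusted p = 0.0488, edgeR), and its call was lost in 9 of 12 fits that left out 1 library, all but those without CON 2, CON 4 or PEA 3 (highest adjusted p = 0.112), and in 3 of 8 other settings (highest adjusted p = 0.0840). Rac1, the GTPase gene with the highest level per length of the list, had a log2 fold change of -0.15 (adjusted p = 0.0996, edgeR). Grb2, the adaptor that joins MET to the Ras pathway, had one of -0.02 (adjusted p = 0.843, edgeR).

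Of 19 genes that respond to the kinase ERK or feed back on it, Errfi1 fell and none rose, with a median log2 fold change of 0.02. Errfi1, which codes for MIG6, an inhibitor of the EGF receptor that growth factors induce, had 2179 ± 259 (SD, n = 6) normalized counts in CON and 1817 ± 49.4 in PEA. The groups did not overlap and the log2 fold change was -0.26 (SE 0.06, adjusted p = 0.0162, edgeR), a call that held in all 8 other settings and all 12 fits that left out a library. Ier3, the gene with the highest level per length of the list, had a log2 fold change of -0.01 (adjusted p = 0.972, edgeR). Spry1, an inhibitor of receptor tyrosine kinase signalling, had one of -0.21 (adjusted p = 0.0508, edgeR), just short of the threshold, and Dusp6, a phosphatase for ERK, one of 0.11 (adjusted p = 0.262, edgeR). Spry1, Dusp6, Cd44, Grb2, Sdc1, Sdc4, Serpinb6a, Akt2, Hgfac, St14, Plg and the cell markers named above were chosen after their values were seen.

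**Figure D4:**
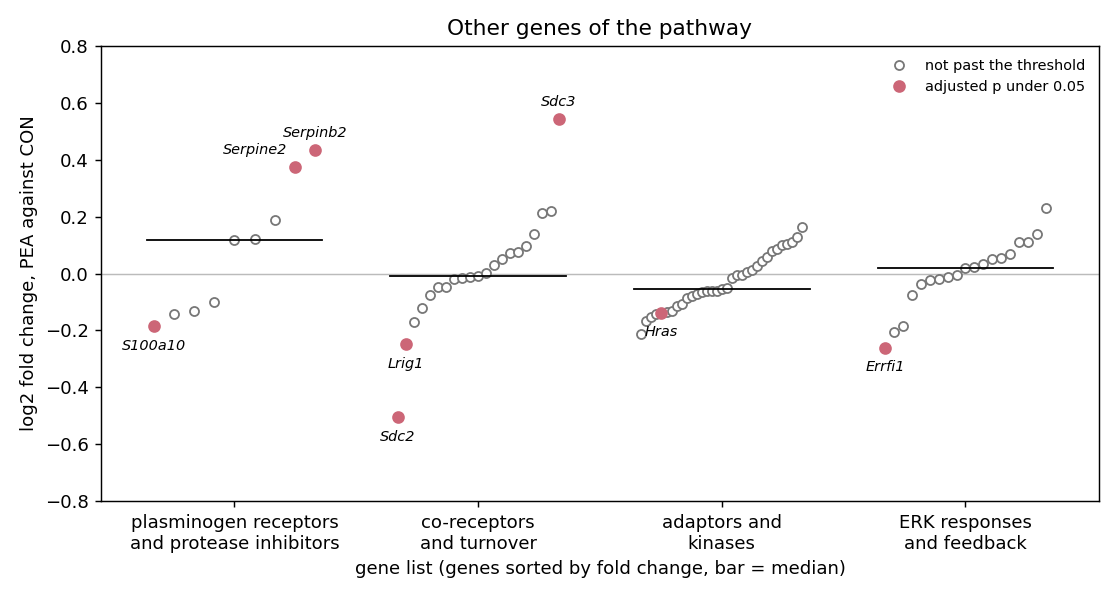
Log2 fold change of PEA against CON (vertical axis) for the 82 tested genes in 4 lists (horizontal axis), sorted within each list, with a bar at the list median. Filled points are the 8 genes with an adjusted p below 0.05 and open points the others. Sdc3 at 0.54 and Sdc2 at -0.51 lie farthest from 0, and the list medians lie between -0.06 and 0.12.

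Genes that varied with Hgf between libraries of the same group were sought by Pearson correlation of log2 CPM after centring within each group, over 12 libraries and 11878 genes. The 5 nearest were R3hdm4 (r = 0.94), Kif21a (r = 0.93), Gadl1 (r = 0.89), Stat3 (r = 0.88) and Cyb561d1 (r = 0.88). Each was lowest without CON 4, the control with the highest Hgf value, when Gadl1 fell to 0.72 and Cyb561d1 to 0.73. Nearest to Met were Bahcc1 (r = 0.93), Tm2d3 (r = 0.91) and Magea13 (r = 0.90). With 12 libraries and this many genes such values are a description, and the points share depth and library preparation. On the same measure Hgf and Met had an r of -0.26, Hgf and Gab1 one of 0.60, and Plat and Plaur one of -0.65.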

How the data were processed

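Per the labels, poly-A RNA libraries were sequenced from 12 cultures, entered as 13 samples because PEA 2 and its top-up run share 1 set of values, used as 1 library. The submitters' processing notes name STAR 4.4.1d, Partek, DESeq2 and mm39. The authors deposited an estimated count per gene, without normalization, and a normalized count, a signal equal to the estimated count divided by 1 factor per library. Both tables end at identifier ENSMUSG00000089774, and 2240 of 21770 protein-coding genes with higher identifiers were not analysed here.

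Estimated counts were rounded and tested with edgeR 4.0.16 in R 4.3.3 (TMM, filterByExpr, quasi-likelihood, group as the only term, Benjamini-Hochberg over 13142 genes). The SE is the log2 fold change divided by the root of its F. Levels per length used TMM-scaled CPM and merged exons of GENCODE M39, and log2 CPM a prior count of 2. DESeq2 1.42.0 and limma 3.58.1 served for alternatives, while tables and plots were made in Python 3.11.15 (numpy 2.4.6; pandas 2.3.3; plots, matplotlib 3.10.9). Tested on simulated data for PEA against CON (13145 genes), edgeR recovered 78 of 100 genes changed by 0.5 on the log2 scale and 99 of 100 changed by 1, with 5.85% false calls. The changed genes were not drawn from those with low counts, and the simulated libraries were independent, unlike duplicate wells. These rates therefore need not hold for the real libraries. Printed errors hold the counting error and the spread between these libraries, nothing else.

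Members and lists were chosen with earlier results of these data known. Named genes were the 8 members, up to 3 genes per list past the threshold with the smallest p, the 1 gene per list with the highest level per length, and the 5 genes most like Hgf and 3 most like Met.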

Additional observations from a re-analysis of the deposited data

Results flagged for a closer look

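In 40 groups of 6 libraries (the 7 fitted genes, the named pathway genes and the library totals), 2 held a library whose gap to its nearest neighbour was large against the range of the group by Dixon's criterion, which chance alone would meet in about 1 of 20 groups. For Sdc2 in CON it was CON 2, with 9236 normalized counts against 11691 in the next library, on the side of the PEA values. For depth it was CON 1, with a total of 50397444 estimated counts against 19083862 in the next deepest control. No value of the 7 fitted genes among the 8 was marked.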

How the results depend on the processing

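Genes called numbered 1452, and between 778 (without PEA 6) and 2203 (without CON 2) when 1 library was left out; they were 864 without CON 6, 906 without PEA 2, 963 without PEA 4 and 794 without PEA 5, and 1915 with DESeq2. Genes higher in PEA, 829 in all, were 536 without CON 6, 501 without PEA 5 and 492 without PEA 6, and genes lower, 623 in all, were 971 without CON 2, 405 without CON 5, 328 without CON 6, 342 without PEA 2, 371 without PEA 4, 293 without PEA 5 and 286 without PEA 6. Pathway genes called numbered 8, and 5 without a filter on low counts, 5 in libraries thinned to the smallest total, 12 with DESeq2, and between 3 (without CON 6 or PEA 5) and 15 (without CON 2) when 1 library was left out; they were 5 without CON 5 or PEA 4 and 4 without PEA 2 or PEA 6. Of 14 neighbouring pairs 11 passed, and 0 without division by exon length and 0 with any library left out. In the group that lost a library, 5 libraries allow no p below 0.0625. The other group kept its 6 libraries, but its p-values were adjusted together with these over all 14 pairs. For the other changes in these counts the cause was not tested. Across 20 other fits the log2 fold change of each of the 7 fitted members moved by less than the SD between libraries. With the replicate block 1570 genes and 7 pathway genes were called. Correlations between same-numbered libraries, after centring within each group, lay between -0.08 and 0.06 over all genes tested. They cannot exclude a pairing that touches part of the genes. The labels do not say whether equal numbers share a repeat.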
